A study of Mus musculus with 8 samples.

Results

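Expression of 10 genes of MHC class I and class II antigen presentation was followed in livers and tumors of Fah-/- mice. The genes were taken by their symbols from the 22504 genes of the expression table, and all 10 were in it. The class II genes were H2-Aa (ENSMUSG00000036594), H2-Ab1 (ENSMUSG00000073421), H2-Eb1 (ENSMUSG00000060586), Cd74 (ENSMUSG00000024610) and Ciita (ENSMUSG00000022504). The class I genes were H2-K1 (ENSMUSG00000061232), H2-D1 (ENSMUSG00000073411), B2m (ENSMUSG00000060802), Tap1 (ENSMUSG00000037321) and Tapbp (ENSMUSG00000024308). All mice were Fah-/- on the 129S4 background, so that every group lacked the last enzyme of tyrosine breakdown and depended on NTBC, a drug that acts upstream of it and is given at 7.5 mg/L in drinking water at full dose. The C 8w group (3 samples, 1a, 2a and 3a, liver) had 8 weeks of moderate chronic liver injury (MCLI) on 2.5% of that dose. The C 8w + A 4w group (3 samples, C096, C097 and C098, liver) had the same 8 weeks and then 4 weeks of severe acute liver injury (SALI) without NTBC, and is called the SALI group from here on. The C 12w group (2 samples, 2e and 3e) had 12 weeks of MCLI, and its samples are labelled tumor. The comparisons ask how the genes by which cells display antigen to T cells were expressed after the switch to SALI, against the livers before it and against the tumors that formed without it. No healthy, uninjured group was analysed here, and the labels do not say whether each sample is a separate mouse or at what age it was taken, so that the p-values cover the spread between these samples. The 3 comparisons share their groups and are not independent of each other.

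MHC class I molecules are present on nearly all nucleated cells, hepatocytes included, and show peptides from the cell's own proteins to CD8+ T cells. A class I molecule is a heavy chain (H2-K1 or H2-D1) bound to beta-2 microglobulin (B2m). Its peptide is cut by the proteasome, carried into the endoplasmic reticulum by the TAP1 and TAP2 transporter and loaded with the help of tapasin (Tapbp). MHC class II molecules show peptides from engulfed material to CD4+ T cells and are made mainly by macrophages, dendritic cells and B cells, among them the Kupffer cells of the liver. The class II chains (H2-Aa, H2-Ab1 and H2-Eb1) are accompanied by the invariant chain (Cd74) until they reach the compartment where peptide is loaded, and their transcription depends on the coactivator CIITA. Both classes are raised by interferon gamma.

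Promoters of the class I and class II genes are known to carry a shared set of short elements, and 5 of them are shown because they display which letters the members have in common. RefSeq windows of build GRCm38.p6, from 250 bases before to 50 after the start of the gene, were found for 7 of the 10 members. There was no entry for H2-Ab1, Cd74 and Ciita. The windows lie at chr17:34287774-34288073 on the minus strand (H2-Aa), chr17:34305617-34305916 on the plus strand (H2-Eb1), chr17:34000298-34000597 on the minus strand (H2-K1), chr17:35262844-35263143 on the plus strand (H2-D1) and chr2:122147437-122147736 on the plus strand (B2m). Each is written 5′ to 3′ on the strand of its gene. Capitals mark, on either strand, CCAAT (the core of the Y box), TGACG (the core of the X2 or cyclic AMP response element), GGGGATTCC (a motif of the NF-kB type) and GAAANNGAA (a motif of the interferon regulatory factor type).
H2-Aa: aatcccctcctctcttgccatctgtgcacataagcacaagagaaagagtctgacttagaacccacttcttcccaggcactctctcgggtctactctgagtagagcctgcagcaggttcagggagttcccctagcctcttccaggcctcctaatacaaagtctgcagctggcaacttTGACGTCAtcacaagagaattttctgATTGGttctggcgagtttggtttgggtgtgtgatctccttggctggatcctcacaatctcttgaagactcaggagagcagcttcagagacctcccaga
H2-Eb1: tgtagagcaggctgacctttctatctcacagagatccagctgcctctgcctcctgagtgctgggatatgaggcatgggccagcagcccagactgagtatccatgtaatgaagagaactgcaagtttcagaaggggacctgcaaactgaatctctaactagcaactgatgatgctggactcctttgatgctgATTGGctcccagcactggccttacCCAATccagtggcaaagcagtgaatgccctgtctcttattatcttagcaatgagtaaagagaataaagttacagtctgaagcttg
H2-K1: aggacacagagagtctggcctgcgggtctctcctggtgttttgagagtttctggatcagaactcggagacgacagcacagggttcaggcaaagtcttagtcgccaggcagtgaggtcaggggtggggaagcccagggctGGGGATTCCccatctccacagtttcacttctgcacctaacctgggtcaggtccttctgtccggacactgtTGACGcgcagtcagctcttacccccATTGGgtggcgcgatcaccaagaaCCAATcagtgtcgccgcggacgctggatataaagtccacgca
H2-D1: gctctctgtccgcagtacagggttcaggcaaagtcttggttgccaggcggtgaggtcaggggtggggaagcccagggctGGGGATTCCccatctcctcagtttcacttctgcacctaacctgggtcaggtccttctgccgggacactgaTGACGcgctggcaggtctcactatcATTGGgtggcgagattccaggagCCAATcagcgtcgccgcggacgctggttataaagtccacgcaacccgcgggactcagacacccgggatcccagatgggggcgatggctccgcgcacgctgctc
B2m: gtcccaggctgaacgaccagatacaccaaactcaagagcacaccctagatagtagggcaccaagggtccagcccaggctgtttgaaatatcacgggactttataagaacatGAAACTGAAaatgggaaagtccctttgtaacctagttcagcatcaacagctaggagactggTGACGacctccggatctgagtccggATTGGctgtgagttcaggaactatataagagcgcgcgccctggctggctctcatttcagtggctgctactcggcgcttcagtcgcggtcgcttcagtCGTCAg
In H2-Aa TGACG was found on both strands, in matches that overlap. CCAAT was found in all 7 windows and in 37.4% of the 32851 windows of the table. TGACG was found in H2-Aa, H2-K1, H2-D1, B2m and Tap1, and in 20.8% of all windows. GGGGATTCC was found in H2-K1 and H2-D1, and in 0.25% of all windows. GAAANNGAA was found in B2m, and in 8.56% of all windows. In H2-Aa 21 bases separated TGACG from the following ATTGG, the reverse complement of CCAAT, and in H2-K1, H2-D1 and B2m 20 bases did. That arrangement, which was looked for after the windows had been read, occurred in 31 of the 32851 windows (0.0944%). In H2-K1 and in H2-D1 61 bases lay between GGGGATTCC and TGACG. These are matches of letters and do not show that a factor was bound.

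Expression is given as FPKM (fragments counted on a gene, divided by its length and by the size of the library), as deposited by the authors, so levels of different genes can be set side by side per length. Read numbers are lost in this unit, so the depth is unknown. Per sample the values added up to 324735.4 to 399342.5, and 9797 to 10658 genes had a value of 1 or more. Groups were compared with limma on log2(FPKM + 1) over the 10244 genes that reached 1 FPKM in 4 or more of the 8 samples, and a gene is said to be called, or to have risen or fallen, where its Benjamini-Hochberg adjusted p over all of these genes was under 0.05. On this scale the fold change of low genes is understated. Over all genes the median log2 fold change was 0.12 for the SALI group against C 8w, 0.01 for the SALI group against C 12w and 0.12 for C 12w against C 8w. Median-ratio scaling moved these medians to 0.01, -0.003 and 0.01. It also changed the split of calls from 2591 higher and 1443 lower genes to 2013 and 2064 for the SALI group against C 8w, and from 1247 and 715 to 976 and 1081 for C 12w against C 8w. Scaling to equal summed FPKM changed the split of the SALI group against C 12w from 1781 higher and 1575 lower to 1116 and 1996. The samples of the SALI group carry another kind of code than the other 5, and the hepatocyte gene Alb was listed at 0 in those 5 and between 12950 and 16950 in the SALI group, so that a difference in how values were made cannot be told apart from the group. The extraction text of the labels names retinas. Of 6 retina markers, Gnat1 was between 1.95 and 3.57, Rcvrn was listed at 0 in all samples and the other 4 were under 1 in all samples, while 7 hepatocyte markers summed to between 8846 and 29300. Of the bile duct markers, Spp1 was 310.7 in 3e and between 8.26 and 23.6 in the other 7 samples.

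The class II genes had their lowest levels in C096 and C098, while in C097, the third sample of the SALI group, they were within or, for H2-Aa, just above the range of C 8w. H2-Aa, the alpha chain of the I-A molecule, had an FPKM of 46.6, 88.5 and 66.9 in C 8w (1a, 2a and 3a), 16.4, 88.9 and 21.2 in the SALI group (C096, C097 and C098), and 47.9 and 85.7 in C 12w (2e and 3e). H2-Ab1, the beta chain of I-A, had 40.7, 82.6 and 65.4 in C 8w, 14.6, 76.9 and 17.5 in the SALI group, and 37.4 and 71.1 in C 12w. C096 and C098 were below all other samples for both chains, and C097 lay within or above the range of C 8w. H2-Eb1, the beta chain of the I-E molecule, had 30.8, 60.7 and 45.7 in C 8w, 12.6, 54.8 and 14.9 in the SALI group, and 25.1 and 54.4 in C 12w. Cd74, the invariant chain, had 72.0, 125.8 and 107.4 in C 8w, 28.6, 122.8 and 33.4 in the SALI group, and 64.5 and 112.8 in C 12w. The groups therefore overlapped for each of these 4 genes in every comparison. In the SALI group the highest sample exceeded the lowest 5.41-fold for H2-Aa, 5.26-fold for H2-Ab1, 4.36-fold for H2-Eb1 and 4.3-fold for Cd74. In C 8w the same folds were between 1.75 and 2.03.

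**Figure D1:**
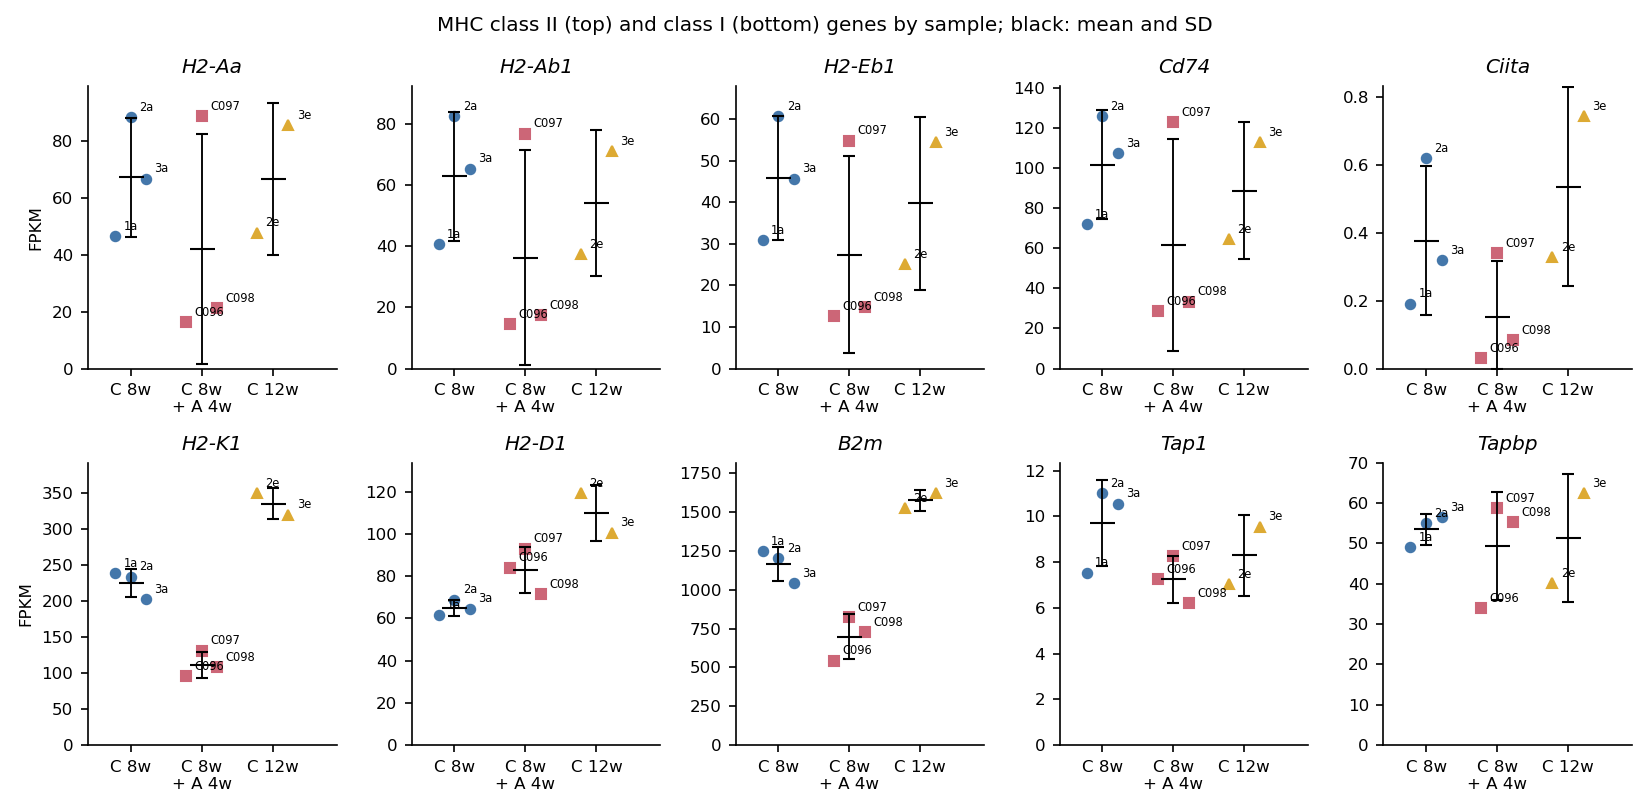
FPKM (vertical axes, from 0) of the 10 genes in each of the 8 samples, with the group on the horizontal axes; points are samples with their codes, and black bars are the mean and SD of 3, 3 and 2 samples, cut at 0. C097 stands apart from C096 and C098 in the class II genes of the upper row, while the 3 samples of the SALI group lie together and below the other groups in H2-K1 and B2m.

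With all 8 samples, none of the 4 class II genes tested was called in any comparison, where 14.1% (the SALI group against C 8w), 15.4% (against C 12w) and 6.98% (C 12w against C 8w) of all genes were called lower. Their log2 fold changes for the SALI group against C 8w were -1.02 ± 0.57 (SE, adjusted p = 0.187) for H2-Aa, -1.12 ± 0.58 (adjusted p = 0.157) for H2-Ab1, -0.98 ± 0.54 (adjusted p = 0.179) for H2-Eb1 and -0.998 ± 0.51 (adjusted p = 0.155) for Cd74. Against C 12w they were between -0.996 (H2-Aa) and -0.73 (H2-Eb1), with adjusted p between 0.265 and 0.383. The 95% intervals of both comparisons reached below -2 and above 0, so that both a change below -2 and a rise lay within them. For C 12w against C 8w the 4 values were between -0.25 and -0.02 with adjusted p between 0.787 and 0.981, and the value of H2-Aa turned positive under total scaling and quantile normalization. At an unadjusted p under 0.05 the count was also 0 in each comparison. A single library decided the calls. Without C097 all 4 genes were called lower against C 8w, at -1.75 (H2-Aa, adjusted p = 0.00637), -1.85 (H2-Ab1, 0.00676), -1.62 (H2-Eb1, 0.0136) and -1.65 (Cd74, 0.00585). They were also called lower against C 12w without it, at -1.73 (H2-Aa, adjusted p = 0.0109), -1.63 (H2-Ab1, 0.0175), -1.37 (H2-Eb1, 0.0373) and -1.44 (Cd74, 0.016).

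**Figure D2:**
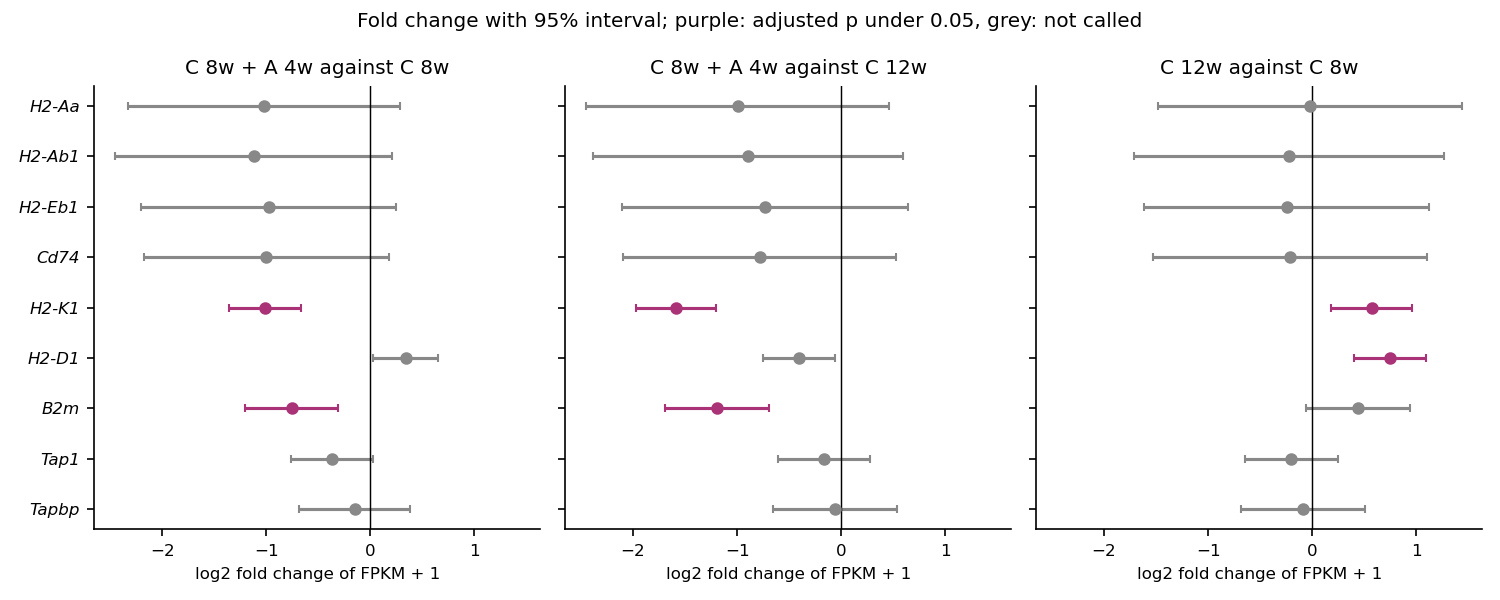
log2 fold change of FPKM + 1 (horizontal axes) with its 95% interval for the 9 genes tested (vertical axis) in the 3 comparisons; purple points passed an adjusted p of 0.05 and grey points did not. The intervals of the 4 class II genes are wide and cross 0 in all panels, while H2-K1 and B2m lie below 0 in both comparisons of the SALI group.

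Markers of macrophages and leukocytes stood apart in the same library. The summed FPKM of 12 macrophage and Kupffer cell markers was 529.7 in C097, 221 in C096 and 187 in C098, against 228 to 257 in C 8w and 213 to 219 in C 12w. The sum of 5 leukocyte markers was 37.1 in C097, 13.8 in C096 and 14.2 in C098, against 17.4 to 23.6 in C 8w and 27.6 to 30.4 in C 12w. Adgre1, which encodes a surface protein of macrophages, had 1.87, 8.16 and 1.97 in C096, C097 and C098, against 4.84 to 8.12 in C 8w. Csf1r, the receptor of macrophage colony-stimulating factor, had 6.41, 20.3 and 5.68 against 10.2 to 12.4. Not all markers of the list were low in C096 and C098. Cd68, a lysosomal protein of macrophages, had 9.56, 11.6 and 5.79 against 6.41 to 7.36, and C1qa, a complement gene of macrophages, had 48.3, 87.8 and 36.1 against 38.1 to 44.7. None of the 10 macrophage markers tested was called by limma between the SALI group and C 8w, and 0 passed an unadjusted p under 0.05. Without C097, 2 of the 10 (Adgre1 and Csf1r) and 3 of the 5 leukocyte markers were called lower, beside 14.4% of all genes. Against C 12w, 0 of the 10 macrophage markers and 1 leukocyte marker (Coro1a, -0.70 ± 0.21, adjusted p = 0.0351) were called lower with all samples. Leaving out C097 made these 3 (Adgre1, Csf1r and Lyz2) and all 5, beside 15.7% of all genes. With all samples none of the 10 macrophage markers was called higher against C 12w. At an unadjusted p under 0.05 in limma, 2 of them were higher (Clec4f, 1.01, and Vsig4, 1.04) and 0 lower. The 9 dendritic cell markers were near 0, with a sum of at most 2.57 in any sample, and all 11 markers of T and NK cells were under 1. Of 8 B cell and plasma cell markers, 6 were under 1 in all samples, and their sum was 4.78 to 20.03 in C 8w, 1.82 to 9.91 in the SALI group with C097 the highest, and 4.54 to 7.37 in C 12w. Of 7 markers of sinusoidal endothelium, which can also carry class II, 4 were called lower (Stab2, Stab1, Clec4g and Kdr) and 1 higher (Lyve1) in the SALI group against C 8w, beside 14.1% and 25.3% of all genes. The same 4 were called lower in C 12w against C 8w, beside 6.98% of all genes, and 0 of the 7 were called by limma between the SALI group and C 12w. The part of these cells in the class II levels was not tested, and in bulk tissue fewer cells of a type and less RNA per cell cannot be told apart.

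**Figure D3:**
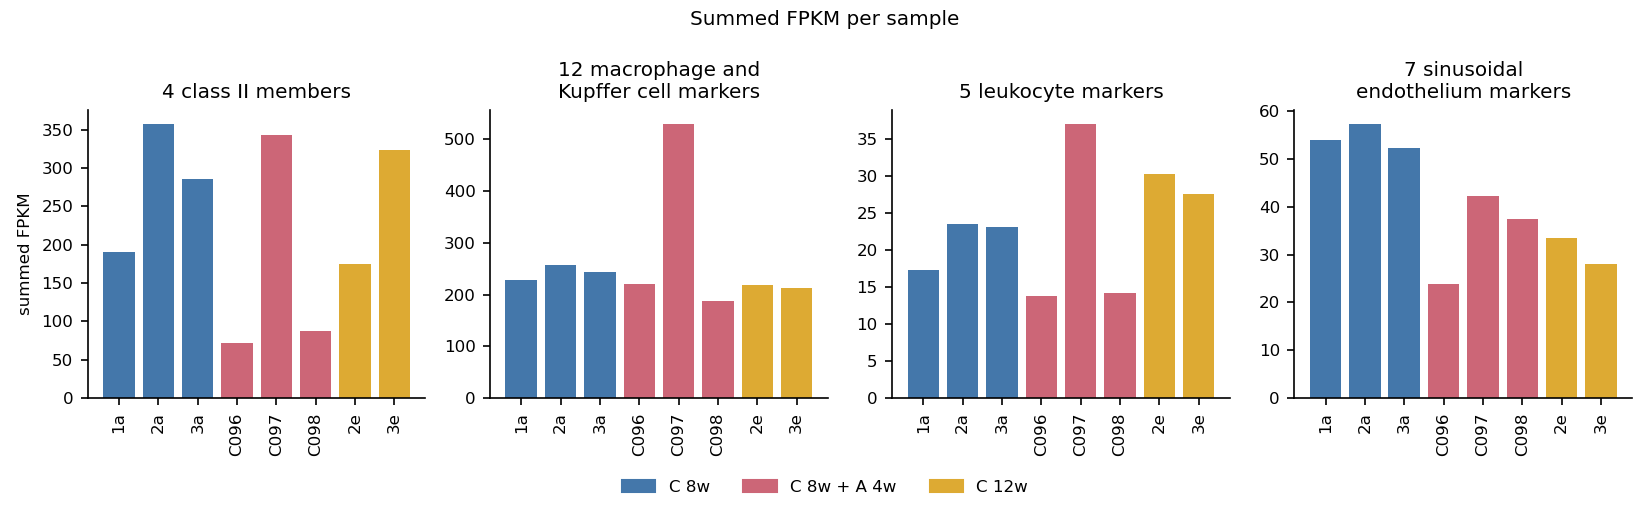
Summed FPKM (vertical axes, from 0) of the 4 class II genes tested and of 3 marker lists (macrophage, leukocyte and sinusoidal endothelium) in each sample (horizontal axes, codes of the samples), with the colour giving the group. C097 has the highest macrophage and leukocyte sums of all samples, and C096 and C098 have the lowest class II and leukocyte sums.

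The class II sum was compared with the macrophage sum in each sample. Within C 8w the sum of the 4 class II genes was 190.2 in 1a, 358 in 2a and 285 in 3a, while the macrophage sum was 228, 257 and 244, in the same order over a narrower range. In C 12w it was 175 in 2e and 324 in 3e, with macrophage sums of 219 and 213. The ratio of H2-Ab1 to Csf1r in the same sample was between 3.91 and 6.65 in C 8w, 2.28 and 3.78 in the SALI group, and 4.19 and 5.81 in C 12w, so that the 3 samples of the SALI group, C097 included, were below all others. The ratio to C1qa did the same (1.07 to 1.85, 0.302 to 0.876 and 1.03 to 2). Of the windows of Csf1r 14.3% occur in another gene, and none of those of C1qa do. The ratios to Adgre1 (8.41 to 12.7, 7.8 to 9.42 and 8.65 to 15.2), to the Kupffer cell gene Clec4f (1.11 to 2.25, 0.581 to 1.3 and 1.85 to 6.59) and to the leukocyte gene Ptprc (30.1 to 45.7, 23.5 to 33.7 and 16.1 to 30.7) overlapped between the SALI group and at least 1 other group. These 5 ratios were chosen after values had been seen and were not tested.

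The class II genes kept nearly fixed proportions to each other. H2-Aa was 1.02 to 1.28 times H2-Ab1 over the 8 samples, H2-Eb1 was 0.671 to 0.862 times H2-Ab1 and Cd74 was 1.52 to 1.96 times H2-Ab1. Cd74 was thus the most abundant of the 4 in every sample and H2-Eb1 the least, while H2-Aa exceeded H2-Ab1 by less than the spread within a group. At most 0.51% of the sequence of these 4 genes occurs in another gene, measured as the share of the 50-base windows of their GENCODE M21 transcripts. Ciita, the coactivator of class II transcription, was far lower. It had 0.191, 0.621 and 0.32 in C 8w, 0.0302, 0.34 and 0.0827 in the SALI group, and 0.329 and 0.743 in C 12w. C096 and C098 were again the lowest samples, and the order of the samples within each group was that of the class II chains. Ciita was below the limit on low values and was not tested with the other genes. In a fit without that limit its log2 fold change was -0.26 ± 0.17 (SE, adjusted p = 0.445) for the SALI group against C 8w, -0.41 ± 0.19 (adjusted p = 0.252) against C 12w and 0.16 ± 0.19 (adjusted p = 0.83) for C 12w against C 8w.

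The class I genes behaved differently from each other. H2-K1 and B2m were called lower in the SALI group, against livers of C 8w and against the tumors of C 12w. In the tumors of C 12w, H2-K1 and H2-D1 were called higher against C 8w. These are differences between groups. The SALI samples also stood apart in Alb, so how their values were made cannot be told apart from the injury. From C 8w to C 12w the label changes from liver to tumor as the weeks of MCLI increase. Tissue and time therefore cannot be told apart there. H2-K1, a classical class I heavy chain, had an FPKM of 239, 234 and 203 in C 8w, 95.8, 131 and 108 in the SALI group, and 350.2 and 319.8 in C 12w. The 3 groups did not overlap, with means of 225 ± 19.6 (SD, n = 3), 112 ± 17.9 (n = 3) and 335 ± 21.5 (n = 2). Its log2 fold change was -1.02 ± 0.15 (SE, adjusted p = 0.00128) for the SALI group against C 8w, -1.59 ± 0.17 (adjusted p = 0.000294) against C 12w and 0.57 ± 0.17 (adjusted p = 0.0477) for C 12w against C 8w. The first 2 of these calls held without any single sample. The third was lost without each of 1a, 2a, 3a, C098, 2e and 3e, with values between 0.50 and 0.64. With all samples it was lost under median-ratio scaling (0.44), and at an unchanged 0.57 with no filter, a lower filter, the robust variance model or only the 2 groups. It was also lost with the numbers 2 and 3 of the codes fitted as a block, matched or crossed (0.62).

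B2m, the light chain shared by all class I molecules, was among the most abundant genes of the liver, above at least 99.2% of the genes tested in every sample. It had an FPKM of 1247, 1206 and 1041 in C 8w, 543, 826 and 726 in the SALI group, and 1526 and 1625 in C 12w. The groups did not overlap, with means of 1165 ± 109 (SD, n = 3), 699 ± 143 (n = 3) and 1575 ± 70.0 (n = 2). Its log2 fold change was -0.75 ± 0.19 (SE, adjusted p = 0.0163) for the SALI group against C 8w and -1.19 ± 0.22 (adjusted p = 0.0043) against C 12w. The call against C 8w was lost without 1a (-0.70), 2a (-0.73) or C096 (-0.58). With all samples it was lost under quantile normalization (-0.56) and with no filter, while that against C 12w held in all alternatives. For C 12w against C 8w the value was 0.44 ± 0.22 (adjusted p = 0.176). No 50-base window of B2m occurs in another gene.

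H2-D1, the other classical heavy chain in the set, took another course. It had an FPKM of 61.6, 68.8 and 64.6 in C 8w, 84.1, 93.1 and 71.5 in the SALI group, and 119.5 and 101 in C 12w. The 3 groups did not overlap, with means of 65.0 ± 3.65 (SD, n = 3), 82.9 ± 10.8 (n = 3) and 110.1 ± 13.4 (n = 2). H2-D1 was called higher in C 12w against C 8w (0.75 ± 0.15, adjusted p = 0.0146), a call lost without 1a (0.71) or 3a (0.74). H2-D1 was also not called there with the numbers 2 and 3 of the codes fitted as a block, matched or crossed (0.71). Its value for the SALI group against C 8w was 0.34 ± 0.14 (adjusted p = 0.0783), called without 2e or 3e at the same value, and against C 12w it was -0.41 ± 0.15 (adjusted p = 0.072), called without C097 (-0.50), under total scaling (-0.59) and under quantile normalization (-0.64). As a consequence, the ratio of H2-K1 to H2-D1 was between 3.14 and 3.88 in C 8w, 1.14 and 1.51 in the SALI group, and 2.93 and 3.18 in C 12w. The ratio was chosen after its values were seen and is given without a test. The samples with a low ratio are those that stood apart in Alb, so the same limit holds for it.

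Reads of these 2 heavy chains are not fully separable from those of their neighbours in the gene family. Of the 50-base windows, 9.63% of H2-K1 and 12.8% of H2-D1 occur in another gene. H2-K1 shared 5.18% of its windows with H2-Q10 and 4.08% with H2-D1, and H2-D1 shared 5.87% with H2-Q1 and 5.44% with H2-K1. H2-Q10 was itself called lower and H2-Q1 higher in the SALI group against C 8w. How the authors assigned such reads is not given in the sources used here, and the reference transcripts may also differ from the alleles of 129S4, so the different courses of H2-K1 and H2-D1 are uncertain to that extent. With all genes of over 2% shared sequence left out, B2m was still called lower against C 8w and C 12w.

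**Figure D4:**
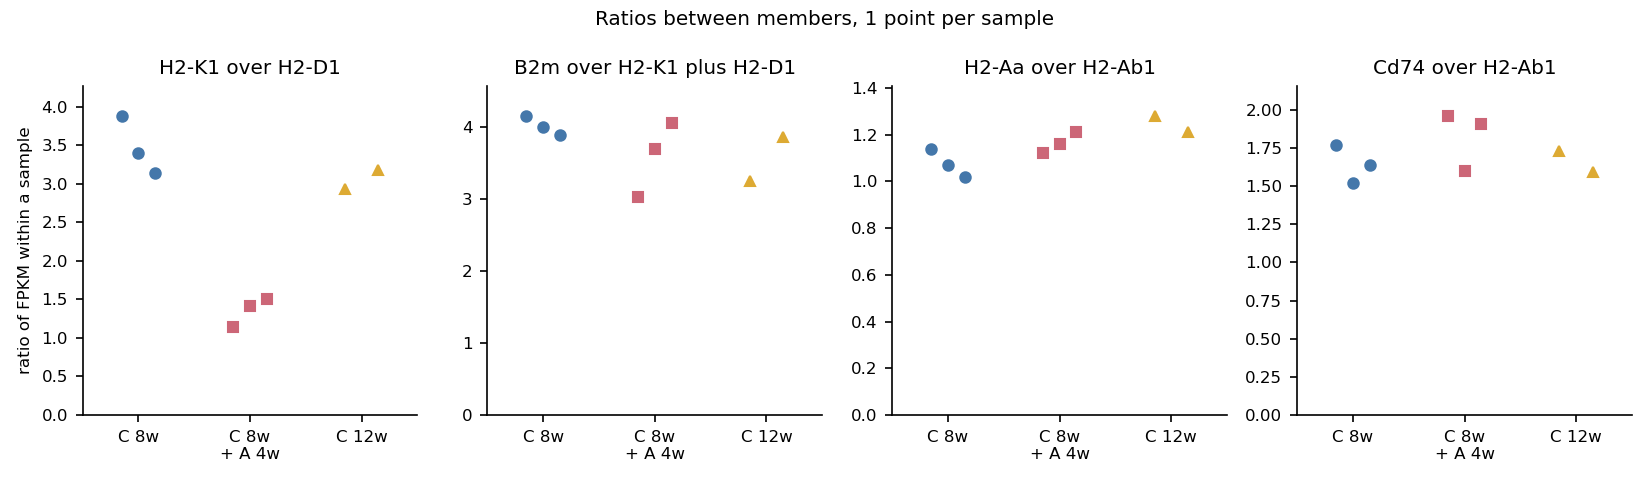
Ratios of FPKM within a sample (vertical axes, from 0) for 4 pairs of genes or sums, with 1 point per sample and the group on the horizontal axes. H2-K1 over H2-D1 is between 1.14 and 1.51 in the SALI group and at least 2.93 in all other samples, while B2m over the heavy chains is between 3.02 and 4.15, H2-Aa over H2-Ab1 between 1.02 and 1.28 and Cd74 over H2-Ab1 between 1.52 and 1.96.

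B2m was 3.02 to 4.15 times the sum of H2-K1 and H2-D1 over all samples, with overlapping groups. The transporter and loading genes were not called in any comparison. Tap1, a subunit of the peptide transporter, had 7.54, 11.03 and 10.6 in C 8w, 7.27, 8.28 and 6.21 in the SALI group, and 7.05 and 9.55 in C 12w. Its log2 fold change for the SALI group against C 8w was -0.37 ± 0.17 (SE, adjusted p = 0.124), and it was called lower under median-ratio scaling (-0.50) and quantile normalization (-0.52). Tapbp, the tapasin that bridges the transporter and the empty class I molecule, had 49.1, 55.0 and 56.4 in C 8w, 34.0, 58.7 and 55.3 in the SALI group, and 40.2 and 62.5 in C 12w. Its groups overlapped throughout, and its log2 fold changes were between -0.15 and -0.06 with adjusted p between 0.631 and 0.876. Leaving out C096 turned the value against C 8w to 0.09, and total scaling turned that of C 12w against C 8w to 0.005. Of Tapbp's windows 23.2% occur in another gene, most of them in the predicted gene Gm19412, and 3.33% of Tap1's windows do, most of them in Psmb9, which lies next to it.

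Of the 9 members tested, 2 were called lower (H2-K1 and B2m) and 0 higher in the SALI group against C 8w, where 14.1% of all genes tested were called lower and 25.3% higher. Against C 12w the same count was 2 lower and 0 higher, against 15.4% and 17.4% of all genes. In C 12w against C 8w, 2 members were called higher (H2-K1 and H2-D1) and 0 lower, against 12.2% and 6.98% of all genes. At an unadjusted p under 0.05 in limma the 3 counts of 0 were 1 (H2-D1), 0 and 0. Without C097, 6 members were called lower against C 8w (14.4% of all genes) and 7 against C 12w (15.7%), the addition being the 4 class II genes and, against C 12w, H2-D1. The median log2 fold change of the 4 class II genes was -1.01, -0.84 and -0.22 in the order the SALI group against C 8w, the SALI group against C 12w and C 12w against C 8w, and that of the 5 class I genes -0.37, -0.41 and 0.44, beside 0.12, 0.01 and 0.12 for all genes. In level, B2m was the highest and H2-K1 the next in every sample, and Tap1 and then Ciita were the lowest. Between these, neighbours in the order of the group means mostly did not differ beyond their SD. In C 8w Cd74 averaged 102 ± 27.3 (SD, n = 3), H2-Aa 67.3 ± 21, H2-D1 65.0 ± 3.65, H2-Ab1 62.9 ± 21, Tapbp 53.5 ± 3.87 and H2-Eb1 45.8 ± 14.9.

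Among the other genes of class II presentation some, but not all, were lowest in C096 and C098. Of 17 genes of class II and its loading, 14 were in the table, 9 passed the limit on low values, and 1 was called in the SALI group against C 8w, the lysosomal protease gene Ctsh (-0.45 ± 0.11, adjusted p = 0.0144; -0.41 and not called without 1a). Of all genes, 14.1% were called lower there. None of the 9 was called in the other comparisons, where at an unadjusted p under 0.05 the counts were 0 against C 12w and 1 lower in C 12w against C 8w. H2-DMa, a chain of the peptide exchanger H2-M, had 3.3, 5.89 and 4.02 in C 8w, 2.13, 6.27 and 2.47 in the SALI group, and 3.2 and 4.95 in C 12w, so that C096 and C098 were again the lowest samples (8.43% of its windows shared). H2-DMb1, its partner chain, had 1.15, 6.41 and 1.91 in C096, C097 and C098 against 2.03 to 3.85 in C 8w. Ctss, the protease that trims the invariant chain in antigen-presenting cells, had 30.7, 58.8 and 24.4 in the SALI group against 18.2 to 28.7 in C 8w (log2 fold change 0.58 ± 0.30, adjusted p = 0.156). Of H2-DMb1's windows 22.6% occur in another gene.

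The 7 factors that bind class II promoters were all tested. In the SALI group against C 8w, 2 were called higher and 0 lower, and against C 12w 2 higher and 1 lower, while 0 were called in C 12w against C 8w (3 higher and 1 lower at an unadjusted p under 0.05). Of all genes, 25.3% were called higher and 14.1% lower against C 8w, and 17.4% and 15.4% against C 12w, so these counts are not set apart from the background. Nfyc, a subunit of the CCAAT-binding factor NF-Y, had 8.35, 6.91 and 7.62 in the SALI group against 3.05 to 3.38 in C 8w and 2.84 and 2.49 in C 12w. It was higher by 1.02 ± 0.11 (adjusted p = 0.000183) against C 8w and by 1.23 ± 0.12 (adjusted p = 0.000158) against C 12w, with 22.2% of its windows in another gene. Nfyb, another subunit, was higher against C 12w (0.78 ± 0.16, adjusted p = 0.00718). Nfya, the third subunit, was called lower against C 12w (-0.58 ± 0.20, adjusted p = 0.0493), but not without any 1 of the 7 samples 1a, 2a, 3a, C096, C097, C098 and 3e (-0.63 to -0.24). Rfxap, a subunit of the RFX complex, was called higher against C 8w (0.47 ± 0.13, adjusted p = 0.0209), but not without 1a, 2a, C096 or C098 (0.36 to 0.48), nor under the 3 other scalings (0.32 to 0.41). Rfx5, the DNA-binding subunit of RFX, had a value of 0.34 ± 0.15 (adjusted p = 0.098).

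Among 13 genes of class I peptide supply and loading, 12 were tested. In the SALI group against C 8w, 2 were called higher and 3 lower, against C 12w 1 higher and 2 lower, and in C 12w against C 8w 1 higher and 0 lower (2 lower at an unadjusted p under 0.05). The shares of all genes were 25.3% higher and 14.1% lower, 17.4% and 15.4%, and 12.2% and 6.98% in the same order, and the counts in this list are read no further than that. Subunits of the immunoproteasome, the form of the proteasome induced by interferon, were among the genes that fell. Psmb9 had 2.34, 4.27 and 2.62 in the SALI group against 6.42 to 8.19 in C 8w (-0.998 ± 0.21, adjusted p = 0.00618). Psmb10 had 8.13, 16.9 and 10.4 against 25.6 to 29.6 (-1.23 ± 0.22, adjusted p = 0.0031). Psmb8, the remaining inducible subunit, had 8.34, 16.1 and 10.95 against 17.6 to 23.2, without overlap (11.9% of its windows shared), and its value of -0.78 ± 0.28 was not called (adjusted p = 0.0569). Without C097 it was called (-1.01), as it was under median-ratio scaling (-0.91) and quantile normalization (-0.91), and at the same value without 2e, without 3e or with only the 2 groups. Against C 12w Psmb9 was lower, at -0.81 ± 0.23 (adjusted p = 0.0281), a call lost without C096 (-0.68) or C098 (-0.74). The call was also lost, at an unchanged -0.81, with no filter and with only the 2 groups. Without 3e, which leaves 1 sample in C 12w, the value was -0.55. The largest change in the list ran the other way. Psme2, a subunit of the PA28 proteasome activator, had 63.2 to 66.4 in the SALI group and 3.26 to 4.46 in the other 5 samples (3.84 ± 0.11, adjusted p = 6.37e-08 against C 8w), and it shared 28.3% of its windows with other genes, nearly all of them in the copy Psme2b. Tapbpl, a relative of tapasin, was lower against C 12w (-0.60 ± 0.13, adjusted p = 0.00853) and against C 8w (-0.42 ± 0.11, adjusted p = 0.0208), the latter not without 1a, 2a, C096 or C098 (-0.41 to -0.36). Tap2, the partner of Tap1, had a value of -0.26 ± 0.12 against C 8w (adjusted p = 0.123). It was called without C097 (-0.37), under median-ratio scaling (-0.40) and under quantile normalization (-0.42). Pdia3, a chaperone of the loading complex, was higher for C 12w against C 8w (0.61 ± 0.17, adjusted p = 0.0415), but not without 1a, 2a, 3a, C097, C098 or 3e (0.41 to 0.69), under median-ratio scaling (0.48), with no filter or with only the 2 groups. Nlrc5, the coactivator of class I transcription, was below the limit on low values, with an FPKM of 0.626 to 0.837 in the SALI group, 0.812 to 1.31 in C 8w and 0.907 and 1.48 in C 12w.

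Of 23 other class I heavy chain genes, 20 were in the table and 15 were tested, and 5 were called higher and 4 lower in the SALI group against C 8w. The counts were 3 higher and 4 lower against C 12w, and 4 higher and 1 lower in C 12w against C 8w, beside 25.3% higher and 14.1% lower, 17.4% and 15.4%, and 12.2% and 6.98% of all genes. Calls in both directions were thus also made over all genes. H2-Q10, a secreted class I protein of the liver, had 102, 90.1 and 73.5 in the SALI group against 232 to 334 in C 8w and 579 and 252 in C 12w (19.1% of its windows shared). It fell by 1.60 ± 0.30 (adjusted p = 0.00384) and by 2.11 ± 0.33 (adjusted p = 0.00226). Azgp1, a secreted class I-like protein that does not need beta-2 microglobulin, had 135, 151 and 193 against 321 to 469 in C 8w and 679 and 476 in C 12w (-1.30 ± 0.21, adjusted p = 0.00213, and -1.84 ± 0.24, adjusted p = 0.000837). Fcgrt, the heavy chain of the neonatal Fc receptor, was lower than in C 8w in the SALI group (-0.82 ± 0.15, adjusted p = 0.00336) and in C 12w (-1.30 ± 0.17, adjusted p = 0.00269). No window of Azgp1 or Fcgrt occurs in another gene.

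Heavy chains called higher in the SALI group share sequence with others of the family. H2-T22, a ligand of gamma delta T cells, had 123, 141 and 94.2 in the SALI group against 19.8 to 21.7 in C 8w and 33.7 and 31.0 in C 12w, with 53.5% of its windows in another gene, among them H2-T10. H2-Q1 had 16.2, 19.5 and 8.56 in the SALI group and 14.3 and 11.4 in C 12w, against 0.758 to 1.88 in C 8w, with 15% shared. H2-Q2 had 1.44 to 4.94 against 0.0399 to 0.179 (16.1% shared). Their log2 fold changes against C 8w were 2.43 ± 0.15 (adjusted p = 9.63e-06), 2.75 ± 0.29 (adjusted p = 0.000202) and 1.62 ± 0.35 (adjusted p = 0.00718). H2-Q1 was also higher for C 12w against C 8w (2.62 ± 0.32, adjusted p = 0.00251). H2-Bl was higher in the SALI group than in C 12w (1.94 ± 0.33, adjusted p = 0.00294; 9.55% shared). H2-Q6 was lower there (-1.63 ± 0.34, adjusted p = 0.00788; 35% shared), a call lost with no filter.

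**Figure D5:**
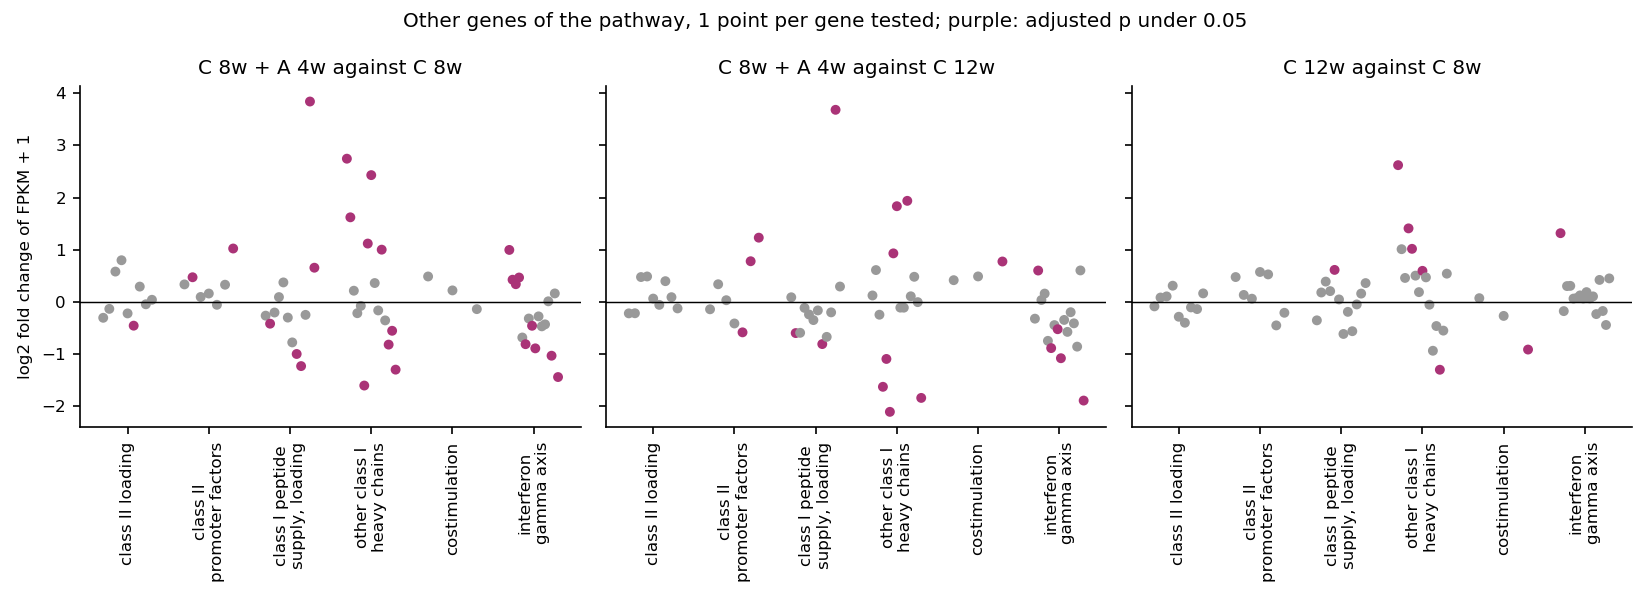
log2 fold change of FPKM + 1 (vertical axis) of the other genes of the pathway in 6 lists (horizontal axes), 1 point per gene tested, in the 3 comparisons; purple points passed an adjusted p of 0.05. The points of the class I heavy chains and of peptide supply spread widest, from -2.11 to 3.84, and those of class II loading lie between -0.455 and 0.799.

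Interferon gamma raises both classes. Of 21 genes of its axis, 16 were tested, and 4 were called higher and 5 lower in the SALI group against C 8w, 1 higher and 4 lower against C 12w, and 1 higher and 0 lower in C 12w against C 8w. All genes had 25.3% higher and 14.1% lower, 17.4% and 15.4%, and 12.2% and 6.98%, so that the 4 higher genes against C 8w were at the background share. Ifngr1, a chain of the interferon gamma receptor, had 23.7, 21.3 and 17.4 in the SALI group and 21.04 and 32.1 in C 12w against 8.61 to 11.3 in C 8w. It was higher by 0.997 ± 0.18 (adjusted p = 0.0035) and by 1.32 ± 0.20 (adjusted p = 0.00553). Ifng itself was listed at no more than 0.0562 in any sample. Irf1 (-0.32 ± 0.27, adjusted p = 0.381) and the guanylate-binding protein gene Gbp2 (-0.28 ± 0.25, adjusted p = 0.397) were not called, and for both C097 was the highest of the 3 samples of the SALI group.

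Irf2, a gene of the axis, was called lower in the SALI group without overlap. Its values were -0.46 ± 0.10 (adjusted p = 0.00821) against C 8w and -0.52 ± 0.11 (adjusted p = 0.00871) against C 12w. Its dependence on single samples is not given here. Several other calls of lower genes in the axis rested on few samples. Stat2 and Irf9, which belong to the factor that answers type I interferon, were lower by 0.81 and 0.89 against C 8w and by 0.89 and 1.08 against C 12w on the log2 scale, with adjusted p between 0.0149 and 0.0193. Each of these 4 calls was lost without C098, and others of 2a, C096 and 3e lost some of them, with values between -1.01 and -0.54. Irgm1, an interferon-induced GTPase, fell by 1.03 ± 0.32 against C 8w (adjusted p = 0.0331; not called without 1a, 2a, 3a or C098, -1.13 to -0.90). Cxcl9, a T cell chemokine, had 0.109, 0.347 and 0.0927 in the SALI group against 1.85 to 2.83 in C 8w and 8.95 and 0.917 in C 12w. It fell by 1.44 ± 0.49 (adjusted p = 0.0475) and by 1.89 ± 0.55 (adjusted p = 0.0308), calls that were lost without any 1 of the 6 samples of the first comparison and without 1a, 3a, C096, C097 or C098 in the other (-1.988 to -1.309). Of 8 costimulation genes, 3 were tested. Cd83, a marker of activated antigen-presenting cells, was lower in C 12w than in C 8w (-0.91 ± 0.15, adjusted p = 0.00632) and higher in the SALI group than in C 12w (0.78 ± 0.15, adjusted p = 0.00506). Cd86, a ligand of CD28 on T cells, was below the limit on low values, with 0.502, 1.53 and 0.408 in the SALI group against 0.8 to 1.13 in C 8w.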

How the data were processed

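RNA of 8 bulk samples in 3 groups was sequenced by a company, and the authors deposited 1 table of FPKM values per gene. The submitters' processing notes name Bowtie 0.12.2 and build mm8; the program that made the FPKM, its annotation and its treatment of reads matching several genes are not given in the sources used here. Symbols were matched to 22314 of 22504 gene identifiers. Genes reaching 1 FPKM in 4 or more of 8 samples were fitted in 1 model of all samples with limma 3.58.1 in R 4.3.3 (eBayes with trend, log2(FPKM + 1), two-sided), and p-values were adjusted by Benjamini-Hochberg over 10244 genes at a threshold of 0.05. Shared sequence was the share of a gene's 50-base transcript windows (GENCODE M21) also present elsewhere. Named besides the members were 14 fixed pathway genes and, per list and comparison, up to 3 called genes of largest change whose groups did not overlap; a few genes that these rules name are not reported here. Members and lists were chosen with earlier results of these data known. Alternatives changed the pseudocount, filter, scaling, variance model, samples, genes tested, call rule and replicate block. The fit was tested on simulated data.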

Additional observations from a re-analysis of the deposited data

How the results depend on the processing

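Of the member counts under the alternatives, 97 stayed within 1.5 times the reported count and 27 did not. In C 8w + A 4w against C 8w, members called higher became 1 with only the 2 groups, and were 0 to 1 with single samples left out. Members called lower there became 1 with no filter, with at most 2% shared sequence and with a log2 change of 1 or more, and were 1 to 6 with single samples left out. Against C 12w they became 1 with at most 2% shared sequence, and were 2 to 7 with single samples left out. In C 12w against C 8w, members called higher became 1 with no filter, a floor of 0.1, median-ratio scaling, the robust variance model and only the 2 groups. They became 0 with at most 2% shared sequence, the replicate block, the crossed block and a log2 change of 1 or more, and were 0 to 2 with single samples left out. The causes were not tested, beyond the smaller number of genes or samples in some alternatives. For C 12w against C 8w, H2-Aa turned to 0.072 under total scaling and 0.102 under quantile normalization, and Tapbp to 0.005 under total scaling. With single samples left out, signs changed within -0.44 to 0.39 (H2-Aa), -0.68 to 0.23 (H2-Ab1), -0.79 to 0.30 (H2-Eb1), -0.61 to 0.18 (Cd74) and -0.40 to 0.22 (Tapbp) there, within -0.294 to 0.091 (Tapbp) and -0.656 to 0.236 (H2-DMb1) for C 8w + A 4w against C 8w, and within -0.361 to 0.028 (Tap1) and -0.38 to 0.25 (Tapbp) against C 12w. The numbers 2 and 3 occur in the codes of both C 8w and C 12w. Differences between the numbers had r = -0.189 across 10244 genes. This rests on a single difference per group, so it cannot decide whether samples of the same number are related. With the replicate block 150 genes were called higher and 102 lower in place of 1247 and 715, and with the numbers crossed, added after the data were seen, 11 and 5. No paired analysis was possible for C 8w + A 4w because its codes share no number with the other groups.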

Other observations

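The genes most like each class over the 8 samples were ranked by Pearson's r of log2(FPKM + 1) with the mean z-score of the members, among 10235 genes, as a description without a test; the points share their libraries, and C097 weighs on them. For the 4 class II genes tested they included Acbd5 (r = 0.994), Ifi203 (0.987), Parp14 (0.974), Adam17 (0.965), Snx9 (0.963), Csf2ra (0.954), Smpd2 (0.952), Aar2 (0.951) and H2-DMa (0.951). The 4 members themselves had r between 0.996 and 1. A member of either class is part of the mean it was compared with, which tends to raise its r above that of other genes. For the 5 class I genes they included Numb (0.976), Gpr155 (0.976), Tango6 (0.974), Isg15 (0.974), Relch (0.973), Heatr6 (0.973), Hnrnpa2b1 (0.97), Polr3b (0.97) and Rtp4 (0.968). The class I members followed their own mean less closely, with r of 0.911 for B2m, 0.875 for H2-K1, 0.622 for Tap1, 0.559 for Tapbp and 0.33 for H2-D1.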
